A study of Mus musculus with 12 samples.

Results

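The data described here are the genes expressed in T cells that lacked TNF receptor 2 and were cultured with TNF and TGF-β, set against wild-type (WT) cells activated without added cytokine (Th0). A gene was included when it reached 1 FPKM (fragments per kilobase, relative to library size) in at least 3 of the 6 libraries of these groups, which left 12242 of the 47643 genes in the deposited table. Of the others, 25471 were listed at 0 in all 6 libraries. The first group held 3 libraries of Tnfr2-/- cells given 20 ng/ml of TNF with 2 ng/ml of TGF-β, and the second held 3 libraries of WT Th0 cells given neither. Cells of both groups came from the spleen of C57BL/6 mice, were labelled as naive CD4+ T cells, and were activated for 3 days by plate-bound anti-CD3 and anti-CD28, each coated at 2 µg/ml, with 500000 cells to a culture. Another group, WT cells with the same TNF and TGF-β (3 libraries), gave values to set beside them. The WT IL-6+TGF-β libraries, the remaining 3 of the 12, entered the fit for its estimate of the spread. They also entered a count of libraries by their CD4 and CD8 genes and a check of the library numbers. Genotype and cytokines both differ between Tnfr2-/- TNF+TGF-β and WT Th0, and Tnfr2-/- cells without cytokine and cells with TGF-β alone were not analysed here. The effects of the genotype, of TNF through its other receptor and of TGF-β therefore cannot be told apart in this comparison. The labels speak of triplicates and name no separate mice or cultures. The spread that the p-values are based on is that among these samples, and it may be technical.

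TNF binds a pair of receptors, TNFR1 (gene Tnfrsf1a), which carries a death domain, and TNFR2 (gene Tnfrsf1b), which lacks one, signals through TRAF proteins to NF-κB and is found mainly on lymphocytes, with high levels on regulatory T cells. TGF-β signals through the receptors Tgfbr1 and Tgfbr2 to SMAD transcription factors. In activated CD4+ T cells it induces Foxp3, the factor that defines regulatory T (Treg) cells, and, with inflammatory cytokines, it favours IL-17-producing T helper (Th17) cells. It also restrains T-bet (gene Tbx21) and the T helper 1 (Th1) program of interferon γ.

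Depth, read from the step size of low values, was 16700000 to 20900000 fragments in these 6 libraries, and 3 fragments on a transcript of 1 kilobase then correspond to 0.144 to 0.18 FPKM. Rank correlations between libraries over the 12242 genes, given as a description, were 0.9498 to 0.9843 within a group and 0.851 to 0.9052 between the groups. The first principal component held 71.4% of the variance and separated the groups, and the second held 12.9% and ran between the Tnfr2-/- libraries numbered 1 and 4 in the columns (the labels number the group 1, 2 and 3, so the column numbered 4 is tied to its group only). The libraries also held RNA that goes against their label. Cd8a was above Cd4 in 11 of all 12 libraries, the exception being the Tnfr2-/- library numbered 4. The 10 B cell markers summed to 843 to 1297 FPKM in Th0, 2087 to 4569 in Tnfr2-/- TNF+TGF-β and 283 to 369.8 in WT TNF+TGF-β. The 8 CD4 and pan-T cell markers summed to 2282 to 2621, 1243 to 1980 and 2173 to 2399 FPKM in the same order. The Tnfr2-/- library numbered 1 had the lowest B cell sum and the highest T cell sum of its group, and the library numbered 4 the reverse. The part of these markers in the results below was not tested. In bulk RNA, fewer cells of a type and less RNA per cell cannot be told apart.

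The targeted gene was examined first. Tnfrsf1b (chr4:145213463-145246870, minus strand, GRCm38) was at 17.4, 22.6 and 18.4 FPKM in WT Th0 and at 4.87, 3.71 and 3.19 FPKM in Tnfr2-/- TNF+TGF-β. All 3 Tnfr2-/- libraries lay below all Th0 libraries, and the log2(FPKM + 1) difference was −2.06 (SE 0.26, adjusted p = 5.98e-05, limma with Benjamini-Hochberg adjustment over all genes, as for every adjusted p here). WT cells with TNF+TGF-β had 74.4, 108 and 70.8 FPKM, so the fall in the knockout stood against a rise in WT under the same cytokines. The deleted part of the gene is not stated in the labels, so the reads that remain do not speak for or against the label. The other TNF receptor, Tnfrsf1a, was at 12.2, 8.69 and 13.2 FPKM in Th0 and at 17.6, 14.9 and 10.7 in Tnfr2-/- TNF+TGF-β. Those libraries overlapped and the difference of 0.31 was not called (adjusted p = 0.204, 95% interval −0.11 to 0.73), though it was called higher without the library numbered 4 (0.49, adjusted p = 0.0458) and with libraries scaled to 7 T cell genes (0.81, adjusted p = 0.00254), whereas Tnfrsf1a rose by 1.21 in WT TNF+TGF-β (adjusted p = 0.000583). Tnf itself was at 14.5, 24.1 and 15.1 FPKM in Th0 and at 14.6, 9.21 and 12.2 in Tnfr2-/- TNF+TGF-β, a difference of −0.52 that missed the threshold (adjusted p = 0.0591). It was called lower with median-ratio scaling (−0.67, adjusted p = 0.0215), with upper-quartile scaling (−0.56, adjusted p = 0.0479), without Th0 replicate 1 (−0.65, adjusted p = 0.0444) and without knockout library 1 (−0.66, adjusted p = 0.0318).

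**Figure D1:**
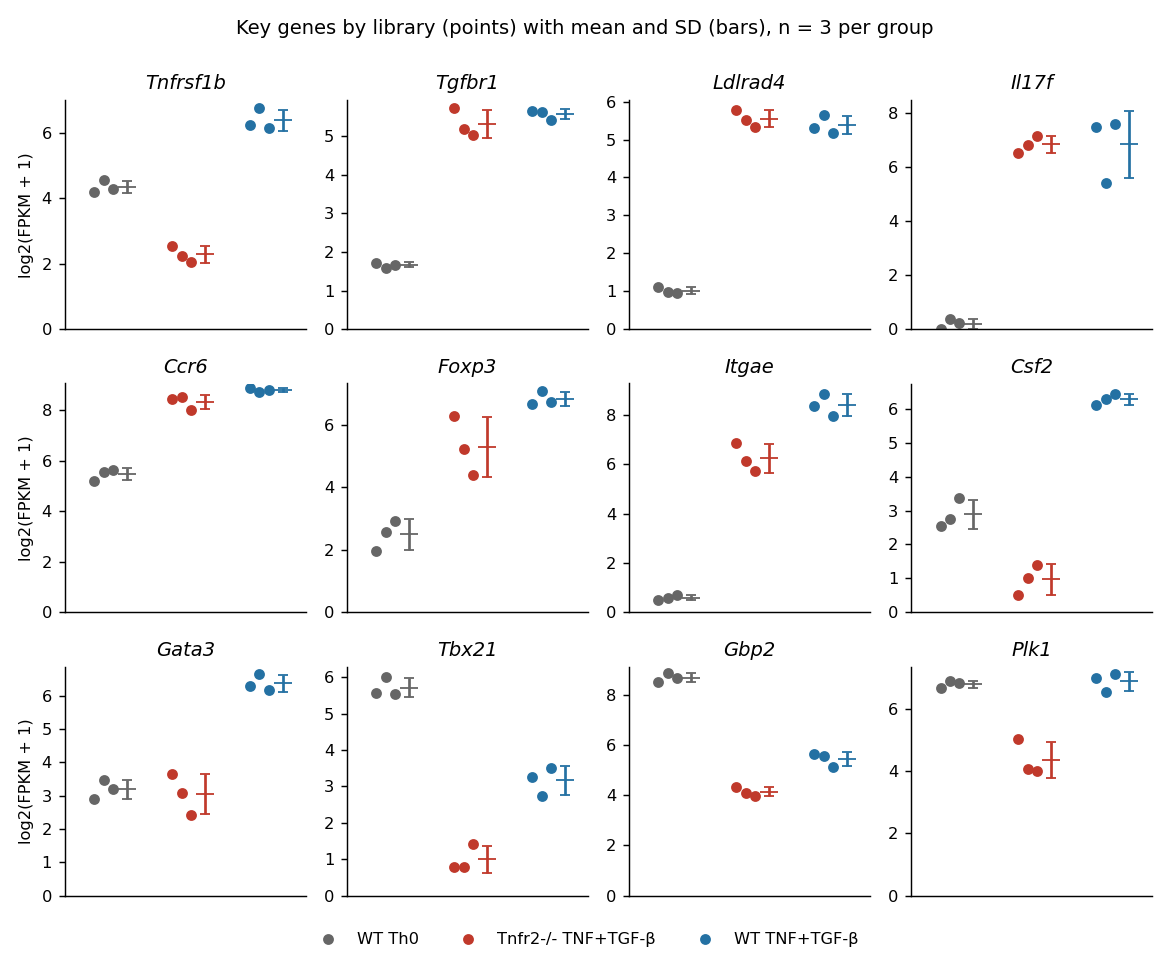
Expression of 12 genes on the log2(FPKM + 1) scale (y axis), with 1 point per library and the mean and SD (n = 3) beside the points, for WT Th0 (grey), Tnfr2-/- TNF+TGF-β (red) and WT TNF+TGF-β (blue). Tgfbr1, Il17f and Ccr6 stood high in both cytokine groups, Foxp3 and Itgae lay between the WT groups in the knockout, and Csf2 and Plk1 were lowest in the knockout.

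Over all genes, 3738 were higher in Tnfr2-/- TNF+TGF-β than in WT Th0 at an adjusted p under 0.05 (30.5% of those tested) and 2482 were lower (20.3%), of which 1599 and 1015 differed by at least 2-fold. The libraries of the groups did not overlap for 7183 genes, or 58.7%. WT TNF+TGF-β against the same Th0 libraries gave 2174 higher (17.8%) and 1704 lower (13.9%), and the knockout against WT with both cytokines gave 2609 higher (21.3%) and 2092 lower (17.1%). These comparisons share libraries, so their values are set side by side and no overlap between them is taken. The split depended on scaling: rises were 60.1% of the calls in the deposited units, 49% after median-ratio scaling, which moved the median difference of all genes from 0.13 to −0.000312, and 86.8% when libraries were scaled to 7 T cell genes, which moved it to 0.62. Lists below are counts of called members among those tested. Counts for the knockout against Th0 are to be read against the 30.5% and 20.3% of all genes. Counts for WT TNF+TGF-β against Th0 are to be read against 17.8% and 13.9%, and those between the genotypes against 21.3% and 17.1%. A gene could pass the filter through 1 group alone, and such a gene had to differ, so these counts describe the lists and were not tested. The adjusted p of such a gene is limited in the same way. Il17a, Il17f, Itgae, Il10 and Cxcl10 below are among these genes.

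**Figure D2:**
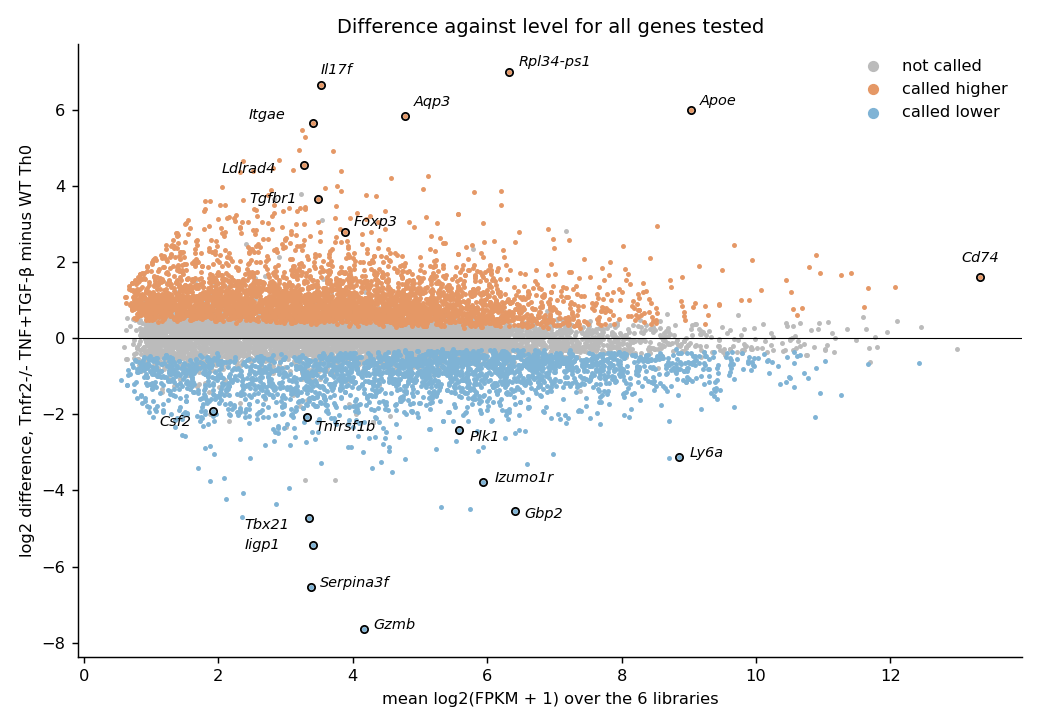
Log2 difference between Tnfr2-/- TNF+TGF-β and WT Th0 (y axis, on the log2(FPKM + 1) scale) against the mean level over the 6 libraries (x axis) for the 12242 genes, with called rises in orange, called falls in blue and the others in grey. Rpl34-ps1 (6.99) and Il17f (6.65) had the highest differences among the marked genes, and Gzmb (−7.64) the lowest.

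Genes of the TGF-β pathway rose in the cells without TNFR2. Of 20 genes on the list of receptors, SMADs and feedback regulators, 18 were tested, 14 rose and 0 fell, with a median difference of 1.32. In WT TNF+TGF-β, 13 of the same 18 rose and 0 fell, with a median of 1.66. Tgfbr1, the type I receptor (chr4:47353222-47414931, GRCm38), was at 2.31, 2.02 and 2.19 FPKM in Th0 and at 52.0, 35.3 and 31.7 in Tnfr2-/- TNF+TGF-β. The groups were far apart, and the rise of 3.65 (SE 0.19, adjusted p = 1.32e-07) stood beside one of 3.91 in WT TNF+TGF-β. The difference between the genotypes under TNF+TGF-β was −0.26 (95% interval −0.68 to 0.16). Tgfbr2, the type II receptor that binds the ligand, rose by 2.06.

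Negative-feedback genes of the pathway rose as well. Ldlrad4, which sequesters receptor-regulated SMADs, was at 1.16, 0.96 and 0.93 FPKM in Th0 and at 54.4, 44.7 and 39.5 in the knockout. It rose by 4.54 (SE 0.16, adjusted p = 4.41e-09), and its difference from WT TNF+TGF-β was 0.18 (95% interval −0.16 to 0.52), called with scaling to the T cell genes (0.60). Pmepa1, another inhibitor of SMAD activation, rose by 3.14 and Smad7, the inhibitory SMAD, by 2.80. Skil, which encodes the SMAD corepressor SnoN, rose by 2.80 and was 0.84 higher than in WT TNF+TGF-β. The SMADs that carry the signal moved less: Smad4 rose by 0.67 (not called without knockout library 1 or Th0 replicate 1, 0.54 and 0.60), while Smad2 (0.04) and Smad3 (0.56) were not called (both were with scaling to the T cell genes, 0.57 and 0.99). Tgfb1, the ligand gene, was at 80.0, 139 and 103 FPKM in Th0 and at 169, 94.2 and 66.6 in the knockout, with no call (−0.04, adjusted p = 0.949). It rose by 1.58 in WT TNF+TGF-β and was lower in the knockout than there (difference −1.61, adjusted p = 0.00902).

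The Th17 genes also rose without TNFR2. Of the 19 listed genes 15 were tested, 11 rose and 2 fell, with a median of 1.79. In WT TNF+TGF-β 12 rose and 0 fell, with a median of 2.94. Under TNF+TGF-β, 7 were lower and 0 higher in the knockout than in WT (median −0.65). Il17f (chr1:20777146-20790617, GRCm38), which encodes the cytokine IL-17F, was at 0, 0.3 and 0.17 FPKM in Th0 and at 92.2, 113 and 143 in Tnfr2-/- TNF+TGF-β. It rose by 6.65 (SE 0.47, adjusted p = 9.1e-07). WT TNF+TGF-β had 180, 42.2 and 196 FPKM, on both sides of the knockout libraries, and the interval of the difference between genotypes ran from −1.02 to 1.01. Il17a, its neighbour on chromosome 1, was listed at 0 in all 3 Th0 libraries and was at 6.57, 5.08 and 5.92 FPKM in the knockout (adjusted p = 0.000243), against 7.36, 1.3 and 4.67 in WT TNF+TGF-β. Both IL-17 genes were thus present in every knockout library and near or at 0 in Th0. They passed the filter through the knockout libraries alone, so they had to differ.

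Ccr6, a chemokine receptor gene of Th17 cells, was at 36.1, 46.3 and 49.2 FPKM in Th0 and at 349.97, 365 and 260.5 in the knockout. The groups did not overlap and the rise was 2.86, with a difference from WT TNF+TGF-β of −0.46 (95% interval −0.85 to −0.07) that was not called (adjusted p = 0.0628). It was called with TPM scaling (−0.59, adjusted p = 0.0176), with median-ratio scaling (−0.51, adjusted p = 0.0331), with upper-quartile scaling (−0.47, adjusted p = 0.042) and in a fit of only the groups compared (adjusted p = 0.0473). The receptor's ligand gene Ccl20 rose by 3.47, against 4.55 in WT TNF+TGF-β. Its genotype difference of −1.08 was not called (adjusted p = 0.0886). That difference was called in a fit of only the groups compared (adjusted p = 0.0495) and without WT TNF+TGF-β replicate 2 (−1.57, adjusted p = 0.0195). The transcription factor Maf rose by 3.21, Rora by 3.05 and the aryl hydrocarbon receptor gene Ahr by 1.68. Rora and Ahr were lower in the knockout than in WT TNF+TGF-β (differences −1.02 and −1.21), though for Rora not without the library numbered 4 (−0.73, adjusted p = 0.0514). The members that fell were Csf2 (−1.92), described below, and Batf (−0.998), an AP-1 factor needed for Th17 differentiation. Il21 was listed at 0 in all libraries of these 3 groups, and Il22 and Il23r stayed below 1 FPKM there.

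**Figure D3:**
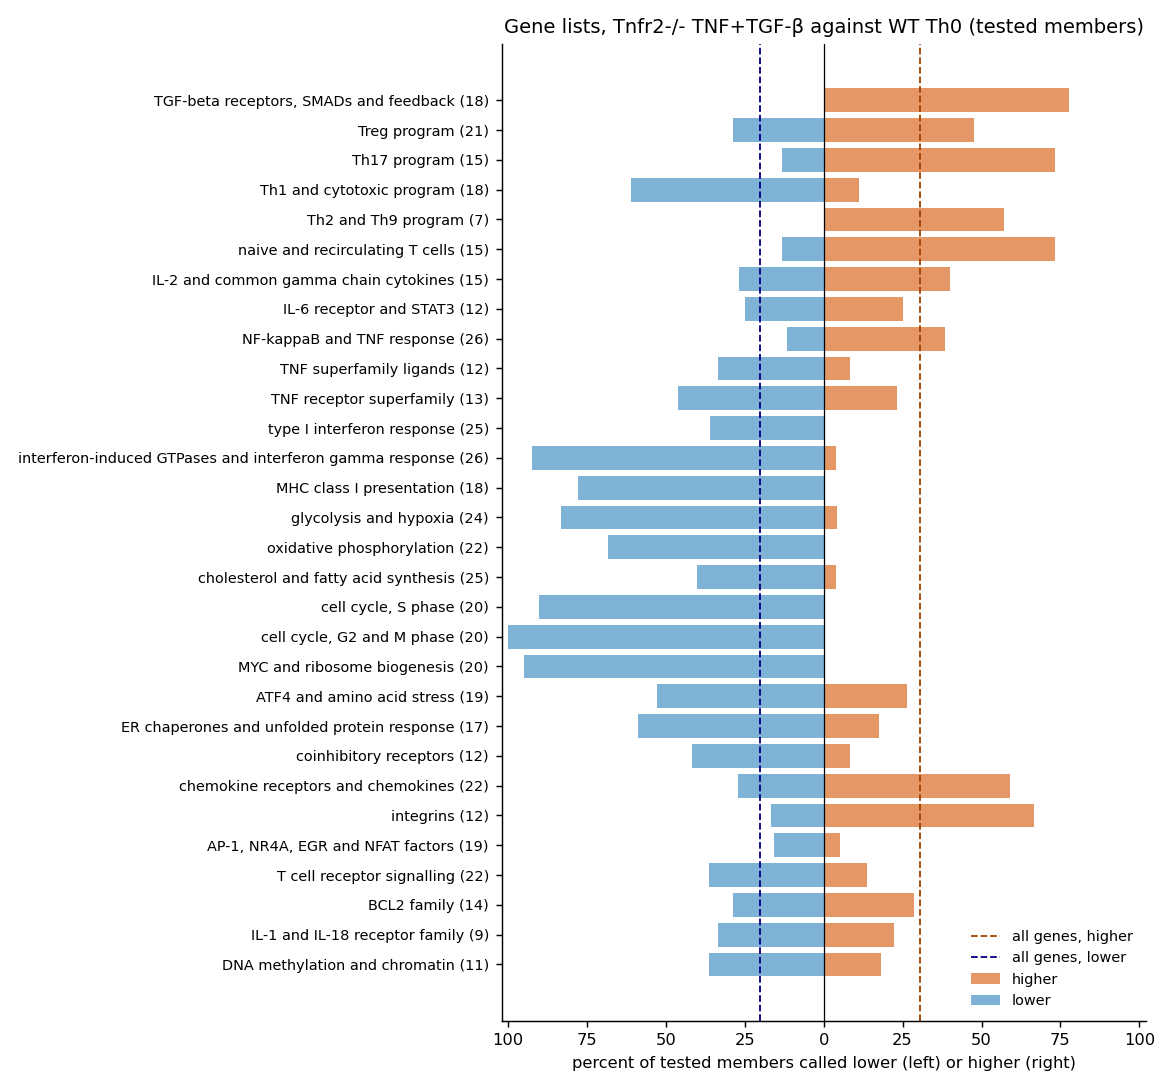
Percent of tested members called lower (blue, left) or higher (orange, right) in Tnfr2-/- TNF+TGF-β against WT Th0 for 30 gene lists (number tested in brackets), with dashed lines at the shares of all genes, 20.3% and 30.5%. TGF-β, Th17 and naive T cell genes lie mostly to the right, and interferon, glycolysis and cell cycle genes mostly to the left.

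Treg genes were split. Of 21 tested, 10 rose and 6 fell with a median of 0.44, against 12 and 3 with a median of 1.40 in WT TNF+TGF-β, and 12 were lower and 2 higher in the knockout than in WT under TNF+TGF-β. Foxp3 (chrX:7573644-7595245, GRCm38) was at 2.91, 4.94 and 6.62 FPKM in Th0, at 76.0, 35.9 and 19.7 in Tnfr2-/- libraries 1, 2 and 4, and at 99.0, 132 and 104 in WT TNF+TGF-β. It rose by 2.79 in the knockout (SE 0.42, adjusted p = 0.000218), and all knockout libraries lay between the WT groups. It was lower than in WT TNF+TGF-β (difference −1.52, adjusted p = 0.0137), a call that was lost without the library numbered 4 (−1.07, adjusted p = 0.0589). That library had the lowest Foxp3 and, as given above, the lowest T cell and the highest B cell marker sum.

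Itgae, which encodes the αE chain of CD103 (chr11:73090583-73147446, GRCm38), showed the same intermediate level. It was at 0.4, 0.51 and 0.61 FPKM in Th0 and at 116, 69.3 and 52.0 in the knockout, a rise of 5.66 (SE 0.30, adjusted p = 1.28e-07). With 325, 462 and 248 FPKM in WT TNF+TGF-β, the genotypes differed by −2.14 (adjusted p = 0.000183). The Ikaros-family gene Ikzf4 rose by 3.03 and was likewise below WT TNF+TGF-β (difference −1.24). Nt5e, which encodes the ectoenzyme CD73, rose by 2.51, with a genotype difference of 0.27 that was called only with scaling to the T cell genes (0.70). Ikzf2, which encodes Helios, was at 1.92, 1.5 and 1.67 FPKM in Th0 and at 3.45, 2.15 and 2.11 in the knockout (0.39, not called, and 0.75 and called with scaling to the T cell genes), against 16.9 to 24.2 in WT TNF+TGF-β.

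Among the Treg genes that fell, Izumo1r, which encodes folate receptor 4, went from 203, 247 and 234 FPKM to 22.9, 15.7 and 10.4 (−3.78). It fell by 1.75 in WT TNF+TGF-β. Tnfrsf18 (GITR, −1.29) and Tnfrsf4 (OX40, −1.14), receptors of the TNF family, fell in the knockout and were not called in WT TNF+TGF-β (0.45 and 0.07). Both also differed between the genotypes under TNF+TGF-β, by −1.73 and −1.21. Il10, the gene of an anti-inflammatory cytokine, was at 0.19, 0.57 and 0.7 FPKM in Th0 and at 1.1, 2.5 and 2.09 in the knockout. This rise of 0.95 (adjusted p = 0.00375) was at a low level, and WT TNF+TGF-β had 0.04, 0.22 and 0 FPKM. Il10 was below 1 FPKM in every Th0 library, so it passed the filter through the knockout libraries alone and had to differ. B cells and macrophages can transcribe Il10 too, and their marker sums were highest in the same group. Their part in the result was not tested.

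Several genes that rose with TNF+TGF-β in WT cells fell or were not called against Th0 without TNFR2. Csf2 (chr11:54247271-54249667, GRCm38), the gene of the cytokine GM-CSF, was at 4.86, 5.74 and 9.27 FPKM in Th0, at 0.42, 1.02 and 1.63 in the knockout and at 68.5, 77.8 and 86.0 in WT TNF+TGF-β. It fell by 1.92 in the knockout (SE 0.29, adjusted p = 0.000233), rose by 3.40 in WT, and differed between the genotypes by −5.32 (adjusted p = 7.14e-07). Penk, the proenkephalin gene, a member of the Treg list, fell from 26.0, 13.8 and 16.2 FPKM to 11.7, 5.07 and 4.51, while WT TNF+TGF-β libraries had 284 to 400.2. For these genes the knockout libraries lay below both WT groups. Gata3, the factor of T helper 2 cells, was at 6.52, 10.2 and 8.12 FPKM in Th0 and at 11.5, 7.54 and 4.36 in the knockout, with no call (−0.14, 95% interval −0.78 to 0.50). In WT TNF+TGF-β it was at 77.1, 100.4 and 72.0 FPKM, and the genotypes differed by −3.33 (adjusted p = 1.12e-05).

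The chemokine gene Ccl1 was at 48.8, 12.6 and 99.6 FPKM in Th0 and at 32.2, 24.7 and 23.5 in the knockout (−0.57, not called), against 1117 to 1555 in WT TNF+TGF-β, where it rose by 5.02. Without Th0 replicate 2, the lowest of its group, it was called lower in the knockout (−1.36, adjusted p = 0.0258). The decoy interleukin-1 receptor gene Il1r2 was at 1.46 to 2.45 FPKM in Th0 and 2.06 to 5.5 in the knockout (0.82, adjusted p = 0.0533), against 60.6 to 147 in WT TNF+TGF-β. It was called higher without the library numbered 4 (1.18, adjusted p = 0.00835), with a pseudocount of 0.1 (adjusted p = 0.0359), with TPM scaling (adjusted p = 0.0469) and with scaling to the T cell genes (1.21). Gzmc, a granzyme gene, did not reach the filter in these groups, with at most 2.31 FPKM, and stood at 15.9 to 18.1 in WT TNF+TGF-β. In all, 289 genes at 1 FPKM or more in each WT TNF+TGF-β library did not pass the filter here.

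Ligands of the TNF superfamily differed between the genotypes. Of 12 tested, 1 rose and 4 fell in the knockout (median −0.24), while 7 rose and 1 fell in WT TNF+TGF-β (median 1.34), and 9 were lower in the knockout than in WT under TNF+TGF-β. Cd70, the ligand of CD27, was at 3.97, 3.48 and 3.6 FPKM in Th0, at 2.03, 1.32 and 1.42 in the knockout (−0.86) and at 45.0, 48.9 and 40.4 in WT TNF+TGF-β. Tnfsf8, the CD30 ligand gene, fell by 1.65 in the knockout and rose by 1.16 in WT. Tnfsf4, the OX40 ligand gene, went from 49.7, 25.7 and 54.5 FPKM to 4.56, 4.93 and 5.01 (−2.86) and was not called in WT TNF+TGF-β (−0.12). Tnfsf11, which encodes RANKL, was not called in the knockout (0.50, adjusted p = 0.0839), was called higher there without the library numbered 4 (0.74, adjusted p = 0.0114), and rose by 2.78 in WT. Ltb, the lymphotoxin β gene, was the member that rose (0.92). Under scaling to the T cell genes 5 of the 12, with Tnfsf11 (1.015) among them, were called higher and 4 lower.

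Among the 13 tested TNF receptor superfamily genes, 3 rose and 6 fell, against 5 and 0 in WT TNF+TGF-β. Tnfrsf25, which encodes the death receptor DR3, was at 3.19, 1.8 and 1.52 FPKM in Th0 and at 54.7, 44.8 and 40.5 in the knockout, a rise of 3.93 beside one of 4.16 in WT. Tnfrsf21 (1.72) and Tnfrsf26 (1.40) were the other rises. Fas, the death receptor gene, fell by 0.53 in the knockout (−0.0063 and not called with scaling to the T cell genes) and rose by 1.63 in WT TNF+TGF-β. The receptor list thus held both genes with like rises in the genotypes and genes with opposite calls.

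The NF-κB and TNF response list was mixed. Of 26 tested, 10 rose and 3 fell, with a median of 0.36. In WT TNF+TGF-β 10 rose and 0 fell. The inhibitor gene Nfkbia was at 245, 278 and 233 FPKM in Th0 and at 346, 426 and 336 in the knockout, a rise of 0.54 against 1.54 in WT. Tnfaip3, which encodes the inhibitor A20, was not called in the knockout (0.18) and rose by 1.92 in WT. Nfkb2 fell by 0.63 in the knockout and rose by 1.29 in WT, with a genotype difference of −1.92, and its fall was lost with scaling to the T cell genes (−0.088). Relb (0.80 and 0.81), Birc2 (1.12 and 1.26) and Bcl3 (1.15 and 1.67) rose in both genotypes, and Nfkbid rose in the knockout (1.16) and was not called in WT (0.15). With scaling to the T cell genes, 19 of the 26 were called higher and 0 lower.

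Receptors and signalling genes of interleukin 2 and related cytokines were often lower in the knockout than in WT under TNF+TGF-β. Of 15 tested, 6 rose and 4 fell, against 9 and 3 in WT TNF+TGF-β, and 10 were lower in the knockout than in WT under TNF+TGF-β. Il2ra, which encodes the high-affinity receptor chain CD25, was at 45.1, 95.6 and 67.4 FPKM in Th0 and at 128, 68.3 and 47.1 in the knockout. These libraries overlapped (0.17, 95% interval −0.56 to 0.90, and 0.71 and called with scaling to the T cell genes), while WT TNF+TGF-β had 170, 157 and 206 FPKM and a rise of 1.40. The genotype difference of −1.23 was called (adjusted p = 0.0128) but not without the Tnfr2-/- library numbered 4 (−0.91, adjusted p = 0.0578) or without WT TNF+TGF-β replicate 3 (−1.12, adjusted p = 0.0502). Il7r, the receptor for interleukin 7, rose by 2.77 (3.79 in WT), and Il2rb by 1.33 (2.16 in WT). Cish, a target of STAT5, was at 18.3, 40.5 and 23.6 FPKM in Th0 and at 45.2, 29.0 and 13.7 in the knockout (0.02, not called), and rose by 2.26 in WT. The cytokine gene Il2 was low in all groups and fell from 3.36, 2.61 and 4.22 to 1.33, 0.68 and 0.84 FPKM (−1.17, against −0.94 in WT).

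**Figure D4:**
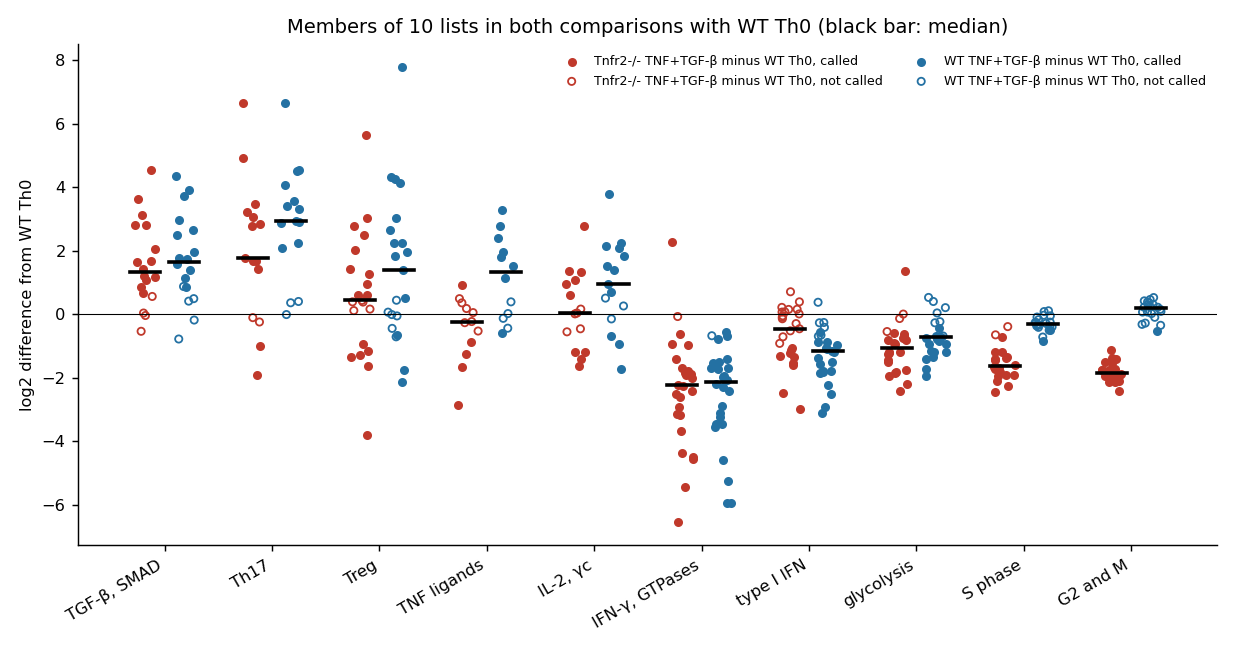
Log2 differences from WT Th0 (y axis, log2(FPKM + 1) scale) of the tested members of 10 lists, for Tnfr2-/- TNF+TGF-β (red) and WT TNF+TGF-β (blue), filled where called and open where not, with the median as a black bar. Both sets share the Th0 libraries. The medians of the TGF-β list (1.32 and 1.66) and of the interferon γ list (−2.24 and −2.13) lie near each other, and those of the G2 and M phase list (−1.84 and 0.19) do not.

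Interferon-induced genes fell in the cells without TNFR2. Of 26 tested genes of the interferon-induced GTPases and the interferon γ response, 24 fell and 1, Ciita, rose (median −2.24), and in WT TNF+TGF-β 25 fell (median −2.13). To show what interferon-induced genes share beyond the lists, the 250 bases before the start of 5 of them are printed, 4 from this list and Bst2 from the type I interferon list. They were chosen by size of fall among candidate genes of these lists and of major histocompatibility complex (MHC) class I presentation. Those printed had 1 window that holds an interferon-stimulated response element and lies outside the annotated gene. The element was searched on both strands as GAAA, any 2 bases and GAAA. The candidates did not cover every gene of these lists. Iigp1, which fell by 5.45, was not among them, so the printed genes are not those with the largest falls. Capitals mark the matches, the sequences run 5′ to 3′ in the direction of the gene, and all come from RefSeq on GRCm38.p6.
Cxcl10 (chr5:92348890-92349139, minus strand): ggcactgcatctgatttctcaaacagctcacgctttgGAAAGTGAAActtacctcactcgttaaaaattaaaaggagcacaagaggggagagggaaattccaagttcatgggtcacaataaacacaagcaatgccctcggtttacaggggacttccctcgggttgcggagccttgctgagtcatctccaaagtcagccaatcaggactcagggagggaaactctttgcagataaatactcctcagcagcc
Gbp7 (chr3:142530086-142530335, plus strand): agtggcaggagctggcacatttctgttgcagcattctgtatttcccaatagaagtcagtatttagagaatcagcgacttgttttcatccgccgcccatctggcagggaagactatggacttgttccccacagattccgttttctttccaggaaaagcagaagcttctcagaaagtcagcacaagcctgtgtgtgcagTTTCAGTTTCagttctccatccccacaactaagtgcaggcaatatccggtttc
Tgtp2 (chr11:49064213-49064462, minus strand): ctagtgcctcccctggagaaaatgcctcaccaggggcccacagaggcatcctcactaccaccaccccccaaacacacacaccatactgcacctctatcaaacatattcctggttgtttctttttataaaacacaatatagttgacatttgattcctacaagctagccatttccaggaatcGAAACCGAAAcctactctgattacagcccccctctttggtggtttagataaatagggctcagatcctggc
Igtp (chr11:58199306-58199555, plus strand): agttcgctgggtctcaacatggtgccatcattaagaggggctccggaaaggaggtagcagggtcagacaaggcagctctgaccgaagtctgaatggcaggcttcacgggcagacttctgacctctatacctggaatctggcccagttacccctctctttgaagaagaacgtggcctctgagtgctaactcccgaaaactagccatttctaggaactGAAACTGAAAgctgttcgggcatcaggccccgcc
Bst2 (chr8:71537473-71537722, minus strand): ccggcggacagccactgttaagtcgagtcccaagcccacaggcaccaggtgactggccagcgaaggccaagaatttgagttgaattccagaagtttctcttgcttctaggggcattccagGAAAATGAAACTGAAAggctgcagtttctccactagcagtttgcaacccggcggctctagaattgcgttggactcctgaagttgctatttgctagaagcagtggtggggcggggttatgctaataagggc
A promoter window was found for 8762 of the tested genes, and 3.47% of them held the motif. A gene counted if any of its windows matched. The motif was present for 11 of the 17 interferon γ genes with a window (64.7%). It was present for 9 of 19 on the type I interferon list (47.4%) and 3 of 16 on the MHC class I list (18.8%). Genes with a window on the TGF-β list (9) and on the Th17 list (12) had 0 matches. A match is a description of the letters and not evidence of a bound site.

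Cxcl10, a chemokine that attracts Th1 cells, was at 11.3, 17.5 and 14.5 FPKM in Th0 and at 0.07, 0.58 and 0 in the knockout, a fall of 3.68 (adjusted p = 4.88e-07) beside one of 3.46 in WT. Gbp7, a guanylate-binding protein gene, went from 61.3, 55.5 and 70.3 to 15.3, 9.66 and 5.6 FPKM. Igtp and Tgtp2, both immunity-related GTPase genes, fell by 2.23 and 2.496. Tgtp2 has a near-identical copy, Tgtp1 (−2.43), so the share of reads given to each is uncertain. Gbp2 (chr3:142620602-142638008, GRCm38), with 362, 468 and 408 FPKM in Th0 and 19.3, 16.2 and 14.7 in the knockout, fell by 4.54 (SE 0.17) and lay below WT TNF+TGF-β (48.9, 45.9 and 34.3), a genotype difference of −1.303. The serpin gene Serpina3f fell by 6.55, Gbp10 by 4.35 and the GTPase gene Iigp1 by 5.45. Their differences from WT TNF+TGF-β were −0.59, 0.24 and −0.21, of which only the first was called. Members of the Gbp and Serpina3 families are close paralogs, so the split of reads between them is likewise uncertain.

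Ciita, the member that rose, is the master regulator of MHC class II genes. It went from 15.5, 14.3 and 18.2 to 63.3, 91.0 and 94.8 FPKM (2.29) and was not called in WT TNF+TGF-β (−0.67). Ciita was also on the list of MHC class II and dendritic cell markers. That list summed to 6917 to 11409 FPKM in Th0 and 18354 to 36226 in the knockout. Ly6a, which encodes Sca-1, fell from 1243 to 1521 FPKM in Th0 to 91.1, 173 and 240 in the knockout (−3.12), and stood at 20.5, 20.5 and 22.1 in WT TNF+TGF-β. Its fall was smaller than in WT (genotype difference 2.83), and the same held for Ly6c2 (2.23), Pld4 (2.02) and Gimap7 (1.43). The call for Pld4 against Th0 (−1.13) was lost under scaling to the T cell genes (−0.59, adjusted p = 0.101). The B cell marker sums, given above, were likewise highest in the knockout and lowest in WT TNF+TGF-β. The part of these markers in the values of Ciita, Ly6a, Ly6c2, Pld4 and Gimap7 was not tested.

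The type I interferon list fell in fewer members. Of 25 tested, 9 fell and 0 rose (median −0.45), against 19 that fell in WT TNF+TGF-β (median −1.16), and 9 were higher and 3 lower in the knockout than in WT under TNF+TGF-β. Zbp1, a sensor of nucleic acids, went from 162, 144 and 186 FPKM to 17.2, 22.9 and 19.95 (−2.97), close to 17.7, 16.8 and 20.1 in WT TNF+TGF-β. Bst2, which encodes the antiviral protein tetherin, fell by 1.60. Usp18 was at 9.86, 8.5 and 12.3 FPKM in Th0 and at 7.53, 6.28 and 15.6 in the knockout (−0.14, not called), and fell by 1.77 in WT. The library numbered 4 had the highest values of Usp18, Ifit3 (22.15 against 2.6 and 3.46 FPKM) and Oas1a (8.92 against 3.43 and 2.94) in its group, and without it 13 of the 25 fell. Ifit3 was not called (−0.91), but was called lower without that library (−1.76, adjusted p = 0.0332) or without Th0 replicate 2 (−1.69, adjusted p = 0.0489).

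Genes of MHC class I presentation fell in 14 of 18 tested members, and 0 rose (17 fell in WT TNF+TGF-β). The transporter gene Tap1 went from 274, 299.6 and 286 FPKM to 77.2, 68.6 and 63.5 (−2.03) and the immunoproteasome gene Psmb9 from 489, 398 and 451.5 to 81.7, 106 and 92.5 (−2.25). Of the heavy chain genes, H2-Q7 went from 369, 334 and 343 to 101.3, 139 and 122 FPKM (−1.53, against −1.71 in WT) and H2-T22 fell by 1.06 (1.18 in WT). The classical heavy chain gene H2-K1 (−0.31) and B2m (−0.25), the β2-microglobulin gene, were not called, and both fell in WT TNF+TGF-β (−1.16 and −0.76). Heavy chain genes are close paralogs, so the split of reads between them is uncertain. Scaling to the T cell genes left 8 falls and 1 rise.

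Th1 and cytotoxic genes fell in 11 of 18 tested members and rose in 2 (9 and 2 in WT TNF+TGF-β). Tbx21 (chr11:97098071-97115331, GRCm38) was at 46.3, 64.0 and 46.0 FPKM in Th0, at 0.71, 0.73 and 1.68 in the knockout and at 8.5, 5.67 and 10.4 in WT TNF+TGF-β. Its fall of 4.72 (SE 0.25, adjusted p = 1.28e-07) was larger than the 2.55 in WT, with a genotype difference of −2.17 (adjusted p = 4.73e-05). Gzmb, the granzyme B gene, had 129, 618 and 205 FPKM in Th0 and 0.38, 0.37 and 0.11 in the knockout. It fell by 7.64, against 6.71 in WT TNF+TGF-β, which had 0.79, 1.84 and 1.86 FPKM. The genotype difference of −0.93 was not called (adjusted p = 0.107). That difference was called with a pseudocount of 0.1 (−2.05, adjusted p = 0.00991) and in a fit of only the groups compared (adjusted p = 0.0215). Ifng was at 7.32, 27.7 and 17.3 FPKM in Th0 and at 1.4, 2.22 and 3.78 in the knockout (−2.30, against −1.90 in WT).

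The chemokine gene Ccl3 fell from 158, 174 and 226 to 10.2, 12.7 and 3.11 FPKM (−4.43) and was not called in WT TNF+TGF-β (−1.03), with a genotype difference of −3.40. The granule gene Nkg7 likewise fell by 3.16, was not called in WT (−0.41) and differed between the genotypes by −2.75. The members that rose were Il18r1 (1.41) and the chemokine gene Ccl5 (1.17), of which Ccl5 fell in WT (−1.15). Markers of other cytotoxic cells moved with these falls. The CD8 genes Cd8a and Cd8b1 summed to 115 to 180.1 FPKM in Th0, 29.5 to 78.9 in the knockout and 307 to 358 in WT TNF+TGF-β. The 4 tested natural killer and innate-like markers, of 9 listed, all fell (3 without the library numbered 4). All 9 listed summed to 38.2 to 70.3 FPKM in Th0 and 4.35 to 12.2 in the knockout. Of the markers not tested, Klra8 was listed at 0 in all 6 libraries. Their part in the result was not tested.

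Proliferation genes fell in the knockout and were seldom called in WT TNF+TGF-β. Of 20 S phase genes, 18 fell (median −1.63), against 2 in WT (median −0.30), and 17 were lower in the knockout than in WT under TNF+TGF-β. Of 20 genes of the G2 and M phases, 20 fell (median −1.84), against 1 in WT (median 0.19), and 20 were lower in the knockout than in WT. Plk1, a mitotic kinase gene, was at 100.02, 117 and 112 FPKM in Th0, at 31.8, 15.6 and 15.1 in the knockout and at 126, 91.9 and 138 in WT TNF+TGF-β, so that every knockout library lay below every WT library. It fell by 2.42. Ccna2, which encodes cyclin A2, fell by 2.14, the thymidylate synthase gene Tyms by 2.09 and Uhrf1, a maintenance factor of DNA methylation, by 2.44. The knockout library numbered 1 had the highest value of its group for all 20 genes of the G2 and M list. Under scaling to the T cell genes, 17 of the S phase and all 20 of the G2 and M genes were still called lower.

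Growth and energy genes fell too. Of 20 MYC and ribosome biogenesis genes, 19 fell (14 in WT TNF+TGF-β), and of 24 genes of glycolysis and hypoxia, 20 fell and 1 rose (17 and 0 in WT). Myc was at 145, 239.6 and 175 FPKM in Th0 and at 116, 77.5 and 49.0 in the knockout (−1.25) and was not called in WT (−0.03). Ldha, the lactate dehydrogenase A gene, went from 3111, 3552 and 3119.7 to 1519, 1370.8 and 817 FPKM (−1.45, against −0.70 in WT). Hk2, a hexokinase gene, fell by 2.20 and the lactate exporter gene Slc16a3 by 2.40. Oxidative phosphorylation genes fell in 15 of 22 (5 in WT) by smaller amounts (median −0.57), with Cycs, the cytochrome c gene, at −1.68. Of 25 cholesterol and fatty acid genes, 10 fell and 1 rose, and without the library numbered 4, or without Th0 replicate 2, 6 fell. These metabolic counts depended on scaling. With libraries scaled to the T cell genes, 16 ribosome biogenesis, 12 glycolysis, 2 oxidative phosphorylation and 4 cholesterol genes were called lower.

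Genes of naive and recirculating T cells rose. Of 15 tested, 11 rose and 2 fell (median 0.89), against 4 and 4 in WT TNF+TGF-β. S1pr1, the receptor that lets lymphocytes leave lymphoid tissue, was at 23.2, 14.8 and 26.4 FPKM in Th0, at 181, 242 and 339 in the knockout and at 26.0, 43.0 and 26.3 in WT TNF+TGF-β. It rose by 3.50 and was not called in WT (0.54). Ccr7, which guides cells to lymph nodes, rose by 0.89, and Foxo1, a transcription factor that sustains the naive state, by 1.69. The rise of Foxo1 was not particular to the knockout. Its difference from WT TNF+TGF-β was 0.17 (adjusted p = 0.491), called with scaling to the T cell genes (0.59). Lef1 (−1.69) and Dapl1 (−3.42) fell. B cells also transcribe S1pr1, Ccr7 and Foxo1, and the B cell marker sums, given above, were highest in the same libraries, a part in the result that was not tested.

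Chemokine receptors and integrins rose in 13 of 22 and 8 of 12 tested genes (6 and 2 fell). The 2 integrin falls depended on single libraries: 0 were called without Th0 replicate 2, and 1 without Th0 replicate 3 or without the knockout library numbered 2 or 4. Ccr8 was at 17.5, 17.9 and 20.1 FPKM in Th0 and at 367, 325 and 186 in the knockout (3.86), below the 492 to 548 of WT TNF+TGF-β. Cx3cr1, the fractalkine receptor gene, rose by 2.57 (4.24 in WT). Cxcr4 rose by 4.26, from 8.81, 3.91 and 9.46 to 107, 151 and 216 FPKM, and exceeded WT TNF+TGF-β (22.3 to 48.9). Cxcr5 rose by 1.28 in the knockout and fell by 1.43 in WT. The B cell marker sums, given above, were likewise highest in the knockout and lowest in WT TNF+TGF-β. Their part in the values of Cxcr4 and Cxcr5 was not tested. The integrin genes Itga4 (1.71) and Itga6 (1.17) rose in the knockout, and neither was called in WT (0.10 and 0.47).

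Among the genes with the largest rises, several were known less for T helper programs. Aqp3, a water and glycerol channel gene, went from 2.09, 2.94 and 2.88 FPKM to 254, 191 and 183 (5.85, SE 0.15), with a rise of 4.98 in WT TNF+TGF-β. Sox4, a transcription factor gene induced by TGF-β in several cell types, rose by 4.40 (3.48 in WT). Rnf208 (5.28), Apol9b (4.94) and Krt83 (4.66) rose with values of 6.02, 5.39 and 5.20 in WT, and Krt83 differed between genotypes by −0.54 (95% interval −1.12 to 0.04), called without WT TNF+TGF-β replicate 2 (−0.84, adjusted p = 0.0194) and with TPM scaling (−0.67, adjusted p = 0.0497). Nupr1, a stress-induced chromatin protein gene, rose by 4.68, from at most 1.17 FPKM in Th0 to 45.7, 51.5 and 20.8, and by 7.04 in WT, with a genotype difference of −2.36. These genes had rises in both genotypes against the same Th0 libraries.

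Other large rises were seen in the knockout and were small or not called in WT. Apoe, the apolipoprotein E gene, was at 78.8, 24.3 and 139.8 FPKM in Th0, at 2851, 4885 and 5252 in the knockout and at 178 to 242 in WT TNF+TGF-β. It rose by 5.99 (SE 0.51, adjusted p = 3.73e-06), against 1.62 in WT. Crisp3, a secreted cysteine-rich protein gene, was at no more than 1.04 FPKM in Th0 and at 42.4, 90.3 and 61.2 in the knockout (5.46). Ngp, a neutrophil granule gene, rose by 4.38 and was not called in WT (0.17). These rises stood beside those of other cell types' markers.

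B cell and myeloid markers were higher in the knockout libraries than in either WT group. Of the 10 B cell markers, 9 rose against Th0 (7 without the library numbered 4), 9 fell in WT TNF+TGF-β, and 10 were higher in the knockout than in WT under TNF+TGF-β. Cd79a, a chain of the B cell receptor, was at 280.5, 258 and 349.96 FPKM in Th0, at 668, 1215 and 1638 in the knockout and at 76.5, 123 and 78.0 in WT TNF+TGF-β. Of the 16 macrophage, monocyte and neutrophil markers 14 were tested and 11 rose. The sums of all 16 were 359 to 540.4 FPKM in Th0, 1117 to 2365 in the knockout and 398 to 521 in WT TNF+TGF-β. Ly6g was listed at 0 in 5 of the 6 libraries. The MHC class II and dendritic cell markers summed to 6917 to 11409, 18354 to 36226 and 2739 to 3996 FPKM, and Cd74, the invariant chain gene, was the most abundant gene of all 3 knockout libraries. Erythroid markers rose in 2 of 4 tested genes and in 0 without the library numbered 4. The part of these cells in the results was not tested.

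**Figure D5:**
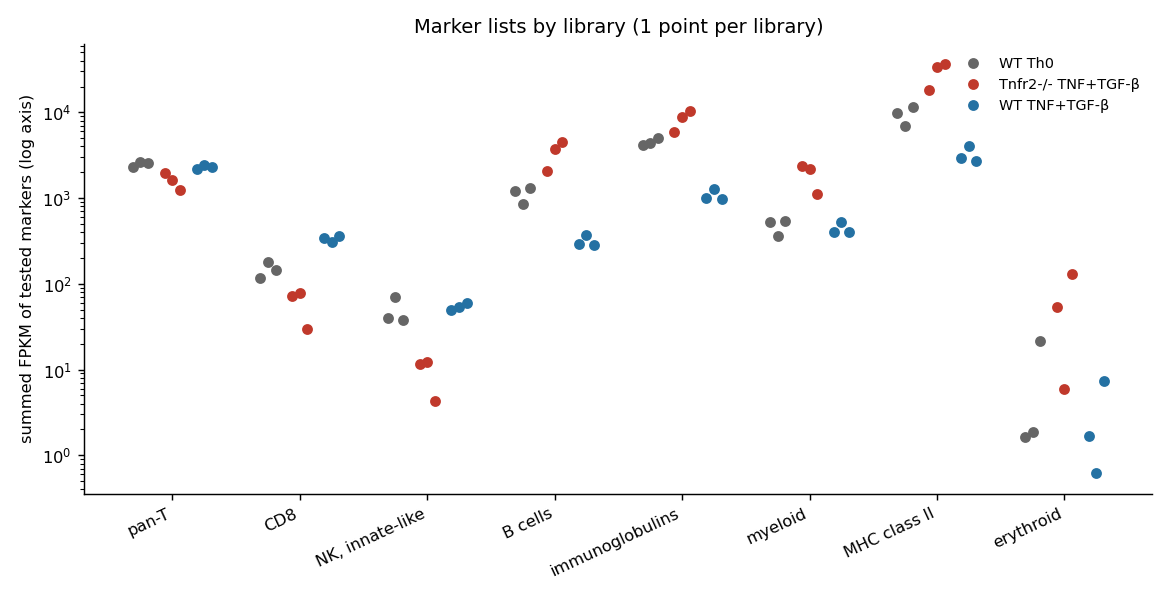
Summed FPKM (y axis, log axis) of 8 marker lists, 1 point per library, for WT Th0 (grey), Tnfr2-/- TNF+TGF-β (red) and WT TNF+TGF-β (blue). The sums cover all listed members in the deposited table, tested or not, although the axis label says tested. B cell, myeloid and MHC class II sums were highest in the knockout libraries, while pan-T, CD8 and natural killer sums were lowest there.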

How the data were processed

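The tools named per the submitters' processing notes are STAR 2.5.4, RSEM 1.3.1 and Trimmomatic, with the mm10 build. A version of Trimmomatic and the annotation were not given in the sources used here. The deposited table held gene-level values that were read as FPKM made by the authors, since value times mean transcript length summed to 900467 to 1010096 in every library. GENCODE M21 (GRCm38), the source of coordinates, held 99.1% of the identifiers. The kit does not mark strand, so overlapping and antisense genes could not be told apart.

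On the log2(FPKM + 1) scale, the deposited values entered limma 3.58.1 (R 4.3.3) with 1 mean per group over 12 libraries and a variance prior that followed the level. Genes with an adjusted p under 0.05 (Benjamini-Hochberg over 12242 genes) were called. A difference on this scale understates the change of low genes. The script was tested on simulated data. Depth was estimated from the steps between low values of genes with 1 transcript of 800 to 3000 bases, less 300, of which 76.3% to 87.9% in the 6 libraries lay within 0.2 of a whole multiple. It covers counting error only.

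The members and lists were chosen with earlier results of these data known. Genes named were 16 fixed genes, the 15 largest rises and falls (at least 2-fold, mean of at least 10 FPKM, no overlap), up to 6 per class that differed from WT TNF+TGF-β and up to 4 called members per list. The others were chosen after their values were seen, and some listed genes are not reported here. Scaling, pseudocount, filter, variance prior, samples in the fit, a replicate block and each library left out were varied. Scaling to 7 T cell genes was chosen after seeing the data.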

Additional observations from a re-analysis of the deposited data

How the results depend on the processing

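Scaling to 7 T cell genes, chosen after seeing the data, gave 6454 genes higher and 984 lower in Tnfr2-/- TNF+TGF-β than in Th0, 917 lower in WT TNF+TGF-β than in Th0, and 4765 higher and 912 lower in Tnfr2-/- than in WT under TNF+TGF-β; the cause was not tested. Median-ratio scaling gave 3024 higher and 3142 lower against Th0 (49% higher), and 44.8% higher for WT TNF+TGF-β, where TPM scaling gave 70.5% against 56.1% in the main fit. For Tnfr2-/- against WT, TPM scaling gave 44.4% higher against 55.5%. With each library left out, the genes lower in WT TNF+TGF-β than in Th0 ranged from 1099 (without WT TNF+TGF-β replicate 2) to 1496, and were 1108 and 1107 without Th0 replicates 1 and 3. Same-numbered libraries of Tnfr2-/- and Th0 did not deviate together (r −0.224 and −0.0977 over genes, for 2 shared numbers). Nor did those of Tnfr2-/- and WT TNF+TGF-β (r 0.0785 and −0.0346). With 2 shared numbers, these values cannot decide whether the numbers pair the knockout libraries with these WT groups. Between Th0 and WT TNF+TGF-β, r was 0.109, 0.137 and 0.0766 for the same number and −0.107 to 0.0204 for different numbers. Between Th0 and WT IL-6+TGF-β, r was 0.35, 0.397 and 0.0531 for the same number and −0.386 to 0.111 for different numbers. Whether the number pairs the WT groups was not tested. With the number as a replicate block, 3278 genes were higher and 1911 lower against Th0, and 1226 were lower in Tnfr2-/- than in WT under TNF+TGF-β, where 2092 had been. Among others, the genotype differences of Tgfb1 (−1.264, adjusted p = 0.0717) and Skil (0.609, adjusted p = 0.0608) were not called in that fit, and Il1r2 (1.113), Tnfsf11 (0.751) and Tnfrsf1a (0.531) were called higher than in Th0. The Tnfr2-/- library numbered 4 shared its number with no other library, so it could not inform group comparisons in the block fit. Without that library and with no block, Il1r2 (1.18), Tnfsf11 (0.74) and Tnfrsf1a (0.49) were likewise called higher than in Th0. For the knockout, the block fit is therefore no separate test of the numbering. Which of its changes came from the block itself was not tested. Depth limits values below about 0.18 FPKM.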

Other observations

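Immunoglobulin constant-region genes, chosen after their values were seen, did not move as a block in the libraries without TNFR2. Igha, the constant region of IgA, was at 0.38, 1.08 and 0.16 FPKM in Th0, at 50.9, 39.7 and 16.5 in Tnfr2-/- TNF+TGF-β and at 63.8, 94.0 and 66.2 in WT TNF+TGF-β. Ighm and Ighd, expressed by naive B cells, rose by 1.20 and 1.68 in the knockout and fell by 1.298 and 1.20 in WT. Ighg1 fell by 2.55 in the knockout, from 4.35, 7.6 and 5.39 to 0.1, 0.32 and 0 FPKM, and rose by 1.97 in WT. Ighg2c was at 15.9 to 19.8 FPKM in Th0, listed at 0 in all 3 knockout libraries and at no more than 0.11 in WT TNF+TGF-β. The isotype genes are near-identical in part, so the authors' counting could split their reads.

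Rpl34-ps1, annotated as a processed pseudogene (chr6:71124610-71124963, GRCm38), was at 4.44, 6.75 and 7.55 FPKM in Th0 and 3.21 to 4.73 in WT TNF+TGF-β, and at 880.1, 1050.3 and 804.0 in the knockout. Its parent gene Rpl34 was at 842 to 914 FPKM in Th0, 580 to 721 in WT TNF+TGF-β and 173 to 224 in the knockout. Near-identical copies share reads, so both values are uncertain, and a transfer of reads between the copies was not tested. Within 5 megabases of Tnfrsf1b, 16 of 70 tested genes were higher and 20 lower in the knockout than in Th0 (51.4% called). Over all genes 30.5% were higher and 20.3% lower, so the share called was near that of all genes. Against WT under TNF+TGF-β, 8 of the 70 were higher and 20 lower (40.0% called, median −0.35). There the shares over all genes were 21.3% and 17.1%, with a median of 0.022. The cause was not tested.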
